A study of Mus musculus with 8 samples.

Results

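The 10 genes described here encode *Tnr* and *Tnc* (the glycoproteins tenascin-R and tenascin-C), *Vcan*, *Ncan* and *Bcan* (the hyaluronan-binding chondroitin sulfate proteoglycans versican, neurocan and brevican), *Cspg4*, *Cspg5* and *Ptprz1* (membrane-spanning chondroitin sulfate proteoglycans, the last a receptor phosphatase), and *Hapln1* and *Hapln2* (link proteins that hold proteoglycans on hyaluronan). They were chosen by name, for their place in one matrix and with earlier results of these data known. They are 10 of the 33696 genes counted. The data are single-nucleus RNA counts from the mouse optic nerve (ON) at 120 days of age, in 8 libraries that each pool 6 ONs of 3 female mice. The 4 control libraries (replicates 1 to 4) carry *Piezo2* f/f without cre, and the 4 libraries labelled cKO (replicates 10 to 13) carry *Olig2-cre;Piezo2* f/f. Both groups are thus homozygous for the floxed *Piezo2* allele. By the study's methods the cre is inserted at *Olig2*, which makes the second group heterozygous for *Olig2* too, and the effects of cre, of *Olig2* dose and of *Piezo2* loss cannot be told apart. P-values between groups measure the spread between these pooled libraries.

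In the matrix of the central nervous system, lecticans (versican, neurocan, brevican) bind hyaluronan at one end and tenascin-R at the other, and link proteins stabilise the bond to hyaluronan. Oligodendrocyte precursor cells (OPCs) are known for NG2, the product of *Cspg4*, and at nodes of Ranvier of white matter the product of *Hapln2* (Bral1), versican, brevican and tenascin-R are known components of the perinodal matrix. The chains are built by xylosyl-, galactosyl- and N-acetylgalactosaminyltransferases and then sulfated.

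*Vcan*, *Ptprz1* and *Tnr*, which fell from OPCs to oligodendrocytes, were chosen after their values were seen, and the 250 bases before the start of their canonical transcripts are shown (GENCODE annotation, build GRCm39, 5′ to 3′ on the gene's strand). Capitals mark matches to CANNTG (an E-box, bound by basic helix-loop-helix factors) or to ACAAT or its reverse complement (the core of SOX sites). The windows are chr1:159351089-159351338 on the plus strand for *Tnr*, chr13:89890815-89891064 on the minus strand for *Vcan* and chr6:22875108-22875357 on the plus strand for *Ptprz1*. None of them overlaps an annotated exon.
Tnr: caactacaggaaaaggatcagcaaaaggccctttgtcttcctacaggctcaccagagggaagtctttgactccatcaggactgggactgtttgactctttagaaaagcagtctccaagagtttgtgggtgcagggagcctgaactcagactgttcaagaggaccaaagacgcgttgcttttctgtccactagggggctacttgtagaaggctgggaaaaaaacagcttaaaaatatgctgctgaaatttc
Vcan: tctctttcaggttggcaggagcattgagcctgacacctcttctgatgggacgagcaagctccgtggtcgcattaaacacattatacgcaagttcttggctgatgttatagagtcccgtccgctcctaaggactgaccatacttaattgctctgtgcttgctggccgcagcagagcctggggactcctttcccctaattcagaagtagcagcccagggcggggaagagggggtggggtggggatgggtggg
Ptprz1: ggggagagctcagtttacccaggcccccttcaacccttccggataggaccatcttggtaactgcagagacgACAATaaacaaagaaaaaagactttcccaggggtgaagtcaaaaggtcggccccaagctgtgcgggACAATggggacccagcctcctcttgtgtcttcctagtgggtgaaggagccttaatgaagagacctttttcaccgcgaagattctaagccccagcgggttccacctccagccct
The windows of *Tnr* and *Vcan* hold neither motif, and that of *Ptprz1* holds 2 SOX cores. An E-box was found before 5 of the 10 genes and in 64.8% of 21770 protein-coding promoters of the same length, and a SOX core before 4 of the 10 and in 27.0% of the promoters. Both strands were searched. The window of *Hapln2*, on chromosome 3 from 87934819 to 87935068, held 3 SOX cores and 1 E-box. The windows of *Hapln2*, *Bcan* and *Hapln1* overlap annotated exons, and these are 3 of the 5 with an E-box. *Bcan* and *Hapln2* are neighbours 16.6 kb apart on chromosome 3, and *Vcan* and *Hapln1* are 43.5 kb apart on chromosome 13.

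A library held 39628926 to 56541132 UMIs (unique molecular identifiers, 1 per counted transcript), and after filters 3487 to 6216 nuclei with a median of 2363 to 3296 UMIs remained. In all, 37247 nuclei fell into 49 clusters, made without the 10 genes, of which 32 were named from markers. The fixed markers of every type were highest in that type except *Ptprc*, which was higher in T cells than in myeloid cells. Since the same markers had named the clusters, this does not check the names. Of the lineage there were 732 OPCs, 101 committed OPCs and 19248 oligodendrocytes (OLs). The rest were 8355 astrocytes, 3404 fibroblasts, 1367 myeloid cells, 341 neurons, 240 endothelial cells, 177 T cells and 64 mural cells. The study regards its neurons as likely contamination from brain tissue next to the ON, and 119 of the 341 here came from control replicate 3. Clusters that could not be named held 8.64% of nuclei. Libraries shared 1 to 12 barcodes per pair. Counts over the whole *Piezo2* gene do not check the deletion, since they include reads from outside the deleted part. OLs of the libraries labelled cKO held 521 to 570 CPM of *Piezo2* (CPM, counts scaled to a common library total) and those of controls 390 to 502 CPM (log2 fold change 0.26 ± 0.11 SE, adjusted p = 0.53, edgeR), and the group is called by its label throughout. Droplets without a nucleus held 276 to 434 UMIs (medians by library), and RNA of this kind made up an estimated 10.1% to 17.2% of the OPC sums and 14.1% to 19.8% of the OL sums.

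Most of the genes were highest in OPCs or committed OPCs, *Hapln2* in OLs and *Tnc* in fibroblasts. Levels are CPM of the summed counts of a type in a library, given as mean ± SD over libraries. They are compared within a gene only, because a count also depends on the transcript. OPCs had 7 of the 9 genes that could be tested called higher than the mean of the other types, against 26.3% of all genes (edgeR, adjusted p below 0.05 and a log2 fold change over 0.5). The 7 were *Tnr*, *Vcan*, *Ncan*, *Bcan*, *Cspg4*, *Cspg5* and *Ptprz1*. None was lower, against 5.48%. In astrocytes *Bcan*, *Ptprz1* and *Cspg5* were called higher, against 33.5%, and *Cspg4* and *Vcan* lower, against 6.41%. In OLs *Hapln2* was called higher, against 32.2%, and *Bcan*, *Ptprz1*, *Ncan* and *Vcan* lower, against 10.5%. In fibroblasts *Tnc* was called higher, against 30.9%, and 5 genes lower, against 6.89%. Neurons had 5 genes called higher, against 31.7% (*Tnr*, *Ncan*, *Hapln2*, *Cspg5* and *Ptprz1*), and *Cspg4* lower, against 11.1%. By library, *Hapln2* in neurons ran from 7.04 to 142 CPM, and the part of RNA from empty droplets in it was not tested. Committed OPCs had *Tnr*, *Vcan*, *Bcan* and *Ptprz1* called higher, against 12.9%, and *Cspg5* lower, against 7.91%. Myeloid cells had 6 genes called lower, against 11.3%, and none higher, against 27.9%. In mural cells *Cspg4* was called higher, against 2.94%, and none lower, against 2.51%. T cells and endothelial cells each had 3 genes called lower, against 12% and 11.8%, and none higher, against 7.8% and 15.7%. At 1000 UMIs per nucleus 7 members could be tested, and those called were 3 in OLs and 2 in fibroblasts, with the shares of all genes given below. Fewer were also called in OPCs, astrocytes, neurons and myeloid cells than at full depth, where 9 were tested. DESeq2 called 8 members in OLs, where it called 52.5% of all genes against 42.7% by edgeR. *Hapln1* did not pass the filter on low counts.

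*Tnr*, which encodes an adhesion-modulating glycoprotein of the central nervous system, stood at 7749 ± 700 CPM in committed OPCs (n = 6) and at 4038 ± 565 CPM in OPCs (n = 8). Neurons followed at 255 ± 85.2 CPM. Astrocytes had 58.7 ± 13.8 CPM and OLs 46.8 ± 8.67 CPM. Empty droplets had 51.0 ± 7.80 CPM, within the spread of the level in OLs as a whole. Subclusters of astrocytes and of OLs lay both above and below this level. *Vcan*, a large lectican, reached 2024 ± 381 CPM in OPCs and 973 ± 352 CPM in committed OPCs, against 42.4 ± 9.98 CPM in fibroblasts and 7.41 ± 2.05 CPM in OLs. *Ncan*, a lectican of neural tissue, had 103 ± 26.7 CPM in OPCs, 23.6 ± 9.75 CPM in neurons and 20.1 ± 14.6 CPM in committed OPCs.

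*Bcan* was shared between glial types. It had 213 ± 44.4 CPM in OPCs, 203 ± 58.2 CPM in committed OPCs and 186 ± 17.8 CPM in astrocytes, and these neighbours in its order did not differ beyond their spread (exact paired sign-flip tests over 6 libraries, p = 0.69 and p = 0.47). *Ptprz1* had 2540 ± 162 CPM in OPCs, 749 ± 66.3 CPM in astrocytes and 562 ± 107 CPM in committed OPCs. *Cspg4* had 371 ± 66.6 CPM in OPCs and 307 ± 101 CPM in mural cells, which had sums in only 3 libraries (234, 265 and 423 CPM). In OLs it was at 20.6 ± 4.32 CPM. *Cspg5*, a neural proteoglycan with an EGF-like domain, had 767 ± 94.8 CPM in OPCs, 91.2 ± 18.1 CPM in astrocytes and 78.5 ± 20.8 CPM in neurons.

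*Hapln2* was the one gene that was highest in OLs, at 402 ± 113 CPM, followed by T cells at 130 ± 65.0 CPM on 26 UMIs in all. Empty droplets held 193 ± 47.6 CPM of it. *Tnc*, an adhesion-modulating glycoprotein with known expression in astrocytes and connective tissue, was highest in fibroblasts at 27.7 ± 14.1 CPM and at 7.14 CPM or less in every other type. *Hapln1* had 11 UMIs in all 732 OPCs, a pooled level of 4.38 CPM (exact Poisson 95% interval 2.19 to 7.84 CPM, counting error only), and 31 UMIs in 19248 OLs. No UMI was found in committed OPCs, where 3 counts would be 5.44 CPM.

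**Figure D1:**
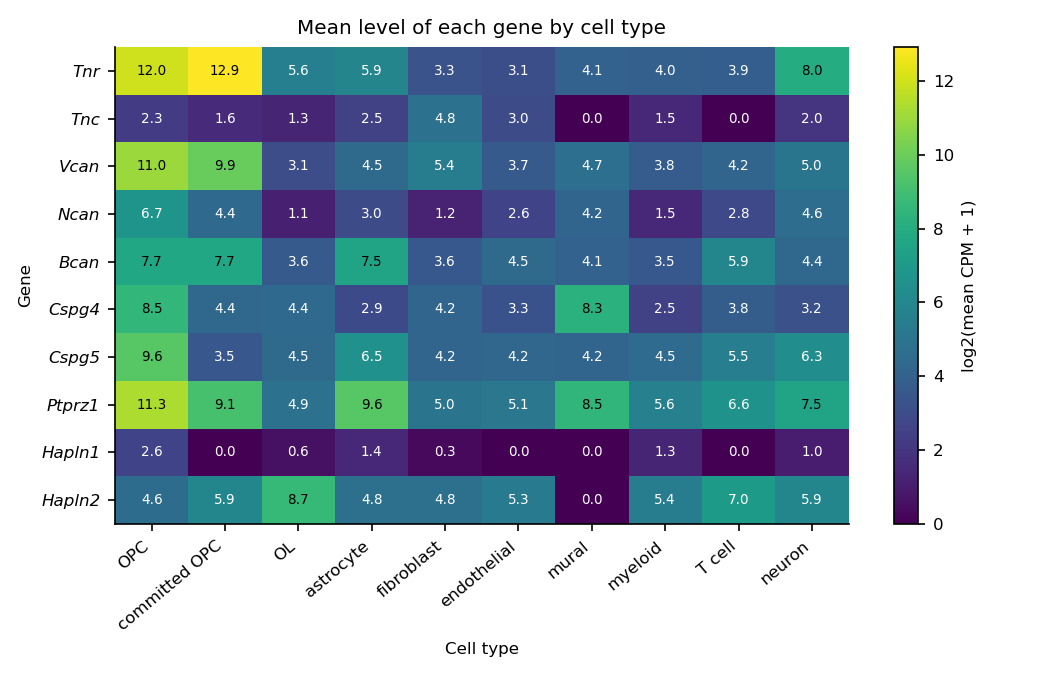
Mean level of each of the 10 genes (rows) in each of the 10 cell types (columns), as log2(mean CPM + 1) over libraries. Read along its row, *Vcan* is highest in OPCs at 2024 CPM, *Tnr* in committed OPCs at 7749 CPM and *Hapln2* in OLs at 402 CPM, and *Cspg4* is high in OPCs and in mural cells.

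Neighbours in the order of types were compared with exact sign-flip tests of log2 CPM within libraries. Of 90 neighbour pairs, 0 passed an adjusted p of 0.05, and 11 reached the smallest p that 8 libraries allow, 0.00781 (adjusted p = 0.0639). Among these 11 were OPC over neuron for *Tnr* (mean log2 difference 4.03) and for *Ncan* (2.10), OPC over astrocyte for *Cspg5* (3.09) and for *Ptprz1* (1.77), and OL over T cell for *Hapln2* (1.65), each higher in 8 of 8 libraries. Pairs with committed OPCs rested on 6 libraries and could not go below 0.0312, a value that committed OPC over OPC for *Tnr* and OPC over committed OPC for *Vcan* both reached. With the profile of empty droplets subtracted, 17 pairs passed.

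Shares of nuclei with a UMI were compared at equal depth. With every nucleus thinned to 1000 UMIs, *Tnr* was found in 94.9% ± 1.74 of OPC nuclei (n = 8) and in 4.17% ± 0.358 of OL nuclei, against 99.1% and 9.77% unthinned. The share in committed OPCs was 95.1% ± 3.86 (n = 6), so the higher level there was not seen in a share that was near its ceiling in both. *Ncan* was found in 7.25% ± 1.80 of OPCs, 3.51% ± 3.88 of committed OPCs and 2.01% ± 2.43 of neurons, and the last pair stood in the opposite order to their CPM, with a spread larger than their difference. *Ptprz1* was found in 90.2% ± 3.68 of OPCs and 48.7% ± 2.68 of astrocytes, *Vcan* in 77.9% ± 6.62 of OPCs and 4.49% ± 1.79 of fibroblasts, and *Hapln2* in 31.8% ± 8.22 of OLs and 2.60% ± 1.25 of astrocytes. *Ptprz1* was found in 2.78% ± 0.763 of OLs and 3.39% ± 1.38 of fibroblasts, shares that overlapped, and no expression is read from them. Of 728 OPCs deep enough for thinning, 85 held a UMI of each of *Tnr*, *Vcan*, *Ptprz1*, *Cspg5* and *Cspg4*, 276 held 4 of the 5, and none held 0.

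Along the OL lineage, from OPC through committed OPC to OL, the genes fell at different steps. Between OPCs and OLs, 7 of 9 tested genes fell, against 23.6% of all genes, and *Hapln2* rose, against 21.3%. *Vcan* fell by 8.02 ± 0.17 on the log2 scale (SE, adjusted p = 1.1e-63). *Ptprz1* fell by 6.40 ± 0.14 and *Tnr* fell by 6.34 ± 0.15. *Ncan* fell by 6.22 ± 0.21, *Cspg5* fell by 5.09 ± 0.09, *Bcan* fell by 4.15 ± 0.13 and *Cspg4* fell by 4.07 ± 0.10, each with an adjusted p of 3.3e-46 or less (edgeR, libraries as a block). *Hapln2* had a log2 fold change of 4.21 ± 0.19 (adjusted p = 3.0e-37). The median over the 9 genes was -5.09, beside 0.08 over all 13317 genes tested. *Tnc* had a log2 fold change of -1.29 ± 0.67 (adjusted p = 0.10). With DESeq2's size factors 31.7% of the genes called were higher in OLs, against 47.4% here.

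The sizes of these falls do not rank the genes. At the estimated share of RNA from empty droplets, that RNA alone would give the OL sums 7.51 CPM of *Vcan*, 35.1 CPM of *Ptprz1*, 1.17 CPM of *Ncan*, 14.2 CPM of *Bcan* and 21.0 CPM of *Cspg5* (means of 8 libraries). The OL sums held 7.41, 28.6, 11.5 and 21.2 CPM of *Vcan*, *Ptprz1*, *Bcan* and *Cspg5* and 0.684 to 1.93 CPM of *Ncan*, so an OL level of these 5 genes could not be told apart from that RNA. *Tnr* and *Cspg4* were above it, at 46.8 and 20.6 CPM against 8.62 and 3.06 CPM. With the profile subtracted, *Tnr* fell by 6.52 and *Cspg4* fell by 4.20. For the other 5 genes the values ran from -14.77 to -8.60 and depend on the prior count.

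*Cspg5* and *Cspg4* were already low in committed OPCs. At this first step 5 of 9 genes fell, against 14.1% of all genes, and 1 rose, against 5.65%. At the second, from committed OPC to OL, 5 fell, against 10.1%, and 1 rose, against 19.4%. *Cspg5* stood at 600.6 to 925 CPM in OPCs, at 0 to 31.2 CPM in committed OPCs, on 5 UMIs in all, and it fell by 6.45 ± 0.31 between these stages (adjusted p = 1.1e-33). *Cspg4* stood at 304 to 518 CPM in OPCs and 0 to 33.1 CPM in committed OPCs, and fell by 4.46 ± 0.32 (adjusted p = 8.2e-22). From committed OPCs to OLs neither passed the test (log2 fold changes 0.40 ± 0.54 and 1.35 ± 0.64 for *Cspg4* and *Cspg5*).

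*Ncan*, *Ptprz1* and *Vcan* fell at both steps. From OPC to committed OPC they fell by 2.70 ± 0.41, 2.37 ± 0.15 and 1.22 ± 0.16, and from committed OPC to OL they fell by 3.53 ± 0.70, 4.03 ± 0.18 and 6.80 ± 0.20. Committed OPCs held 9 *Ncan* UMIs in all, and in control libraries only its second step was -3.28 (adjusted p = 0.15). *Bcan* did not pass the first test (log2 fold change -0.29 ± 0.20, adjusted p = 0.36) and fell by 3.85 ± 0.27 at the second.

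*Tnr* was higher in committed OPCs than in OPCs. The committed OPC sums held 6529 to 8414 CPM (control 1, 8414; control 3, 8038; replicates labelled cKO, 8051, 6529, 8146 and 7317), and the OPC sums 3400 to 5095 CPM. No committed OPC sum was as low as the highest OPC sum. The fitted log2 fold change was 0.73 ± 0.13 (adjusted p = 4.3e-06) where the median of all genes was -0.32. It was not called in 2 alternatives, and the cause was not tested. With nuclei thinned to 1000 UMIs it was 0.12 (adjusted p = 0.38) against a median of -0.87, and with the profile of empty droplets subtracted it was 0.52 (adjusted p = 0.15) against a median of -0.30. With DESeq2's size factors it was 0.92 (adjusted p = 1.44e-08). Relative to the median of all genes the difference was 1.05 as fitted first, 0.99 thinned and 0.83 with the subtraction. *Tnr* then fell by 7.07 ± 0.16 to OLs (adjusted p = 4.2e-60). Committed OPCs were 1 cluster of 101 nuclei, with OL markers at 0.35 of the OL level and 1.81 times the median UMI count, and the part of doublets in it was not tested.

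*Hapln2* stood at 4.55 to 39.5 CPM in OPCs, 16.6 to 146 CPM in committed OPCs and 173 to 504 CPM in OLs. Every OL sum was above every committed OPC sum, and the step from committed OPC to OL was 2.97 ± 0.27 on the log2 scale (adjusted p = 7.2e-17). The first step missed the threshold (1.24 ± 0.48, adjusted p = 0.056), but passed it with DESeq2 (1.28, adjusted p = 0.013) and with the profile of empty droplets subtracted (3.06, adjusted p = 0.0097). When 430 nuclei of 3 unnamed clusters, led by OPC markers but with markers of another type and 2.23 to 3.06 times the median UMI count, were counted as OPCs, it was -1.09 (adjusted p = 0.016).

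**Figure D2:**
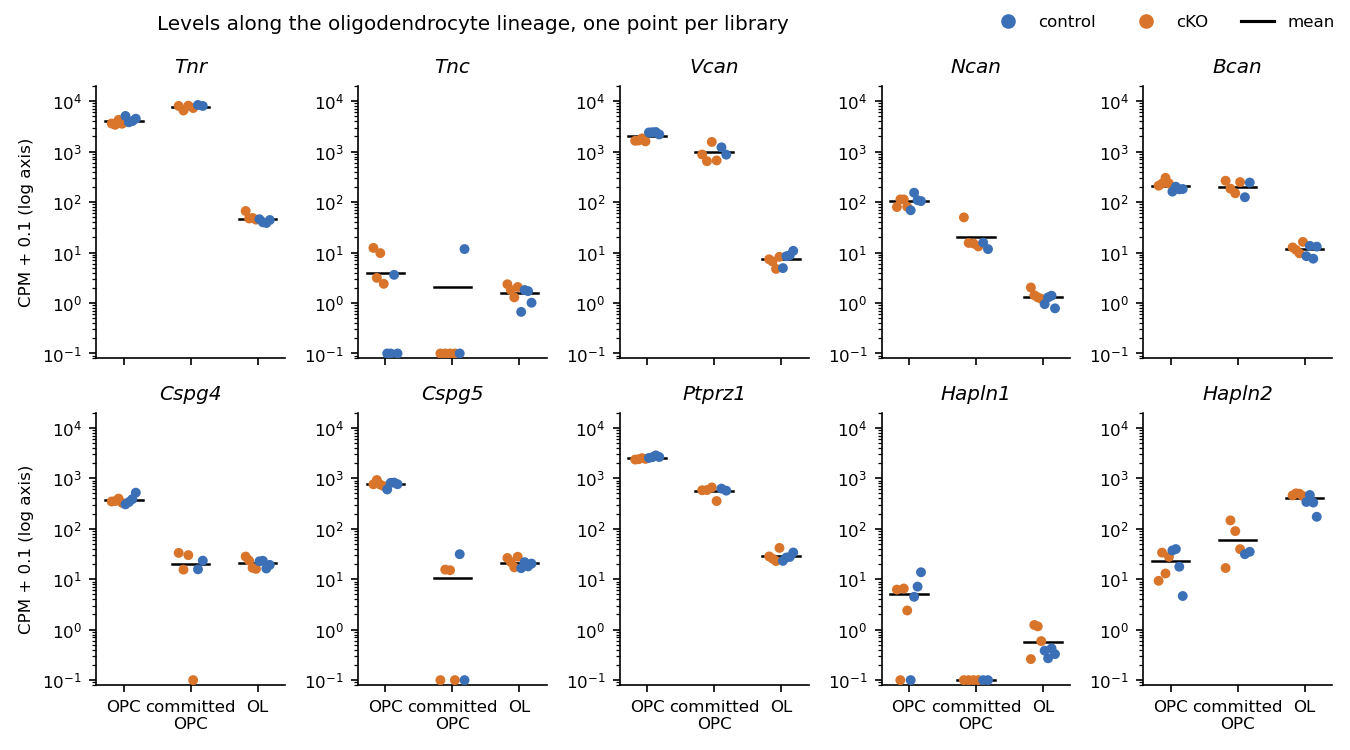
CPM + 0.1 on a log axis for each gene in OPCs, committed OPCs and OLs; 1 point is a library, blue for control and orange for the libraries labelled cKO, and the line is the mean. *Cspg5* and *Cspg4* are low from the committed OPC on, *Tnr* is highest there, and *Hapln2* is highest in OLs.

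Most of the enzymes that make the chains were lower in OLs than in OPCs. Of 12 genes for chain synthesis, 10 were tested between OPCs and OLs, and 7 fell and 0 rose, against 23.6% and 21.3% of all genes. *Xylt1*, which starts the chain, went from 2172 ± 257 CPM in OPCs to 11.7 ± 2.19 CPM in OLs and fell by 7.44 ± 0.14. *Csgalnact1*, which commits the chain to chondroitin, had 154 ± 37.7 CPM in OPCs, 996 ± 282 CPM in committed OPCs and 2.74 ± 0.562 CPM in OLs, and *Chsy1*, a chain-extending synthase, fell by 3.09 ± 0.29. Of 10 genes for sulfation and epimerization, 8 were tested, 6 fell and 1 rose, against the same shares. *Chst11*, a 4-O-sulfotransferase, fell by 6.94 ± 0.13 and *Chst7* fell by 5.58 ± 0.41. *Ust*, a 2-O-sulfotransferase, had 388 ± 54.3 CPM in OPCs, 2708 ± 646 CPM in committed OPCs and 28.3 ± 4.39 CPM in OLs. *Csgalnact1* and *Ust* were thus higher in committed OPCs than in OPCs, by 2.46 ± 0.13 and 2.55 ± 0.13 on the log2 scale.

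The other lists are read against the same shares, 23.6% fallen and 21.3% risen. Of 7 tested hyaluronan genes 3 fell, among them *Has2*, a hyaluronan synthase (-7.01 ± 0.43), *Hmmr* (-5.20 ± 0.54) and *Has1* (-2.61 ± 0.66), and none rose. Of 10 tested proteases 4 rose and 5 fell. *Adamts4*, an aggrecanase, had 13.6 ± 12.0 CPM in OPCs and 101 ± 16.0 CPM in OLs (log2 fold change 3.04 ± 0.21), and *Adamts9* and *Mmp2* fell by 5.44 ± 0.29 and 3.45 ± 0.24. Of 16 tested receptors and partners 4 rose and 8 fell, led by *Cntn1* (-7.12 ± 0.16), a contactin that binds tenascin-R, *Itga9* (-6.85 ± 0.11), an integrin subunit, and *Nrcam* (-5.25 ± 0.14), an adhesion molecule of nodes. Of 5 other family members 1 was tested and did not pass. The list medians were -0.86, -1.95, -0.58, -0.30, -0.61 and -0.38 in this order (chain synthesis, sulfation, hyaluronan, proteases, receptors, other members), beside 0.08 over all genes.

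Within OLs, *Tnr* differed with a score of maturation. OLs of each library were ranked by the mean log level of *Trf*, *Apod* and *Klk6*, markers of mature OLs, minus that of *Mbp*, *Mog* and *Mal*, and the upper tertile was compared with the lower. *Tnr* was at 31.9 ± 9.96 CPM in the lower tertile and 64.4 ± 14.6 CPM in the upper (SD, n = 8), and higher in the upper tertile of 8 of 8 libraries. It was the 1 of 7 tested genes that rose, against 2.12% of all genes, and none fell, against 1.5%, with a log2 fold change of 0.99 ± 0.08 (adjusted p = 1.1e-18, edgeR, libraries as a block). *Hapln2* was higher in 8 of 8 libraries by less than the fold threshold, at 362 ± 105 CPM against 439 ± 119 CPM (log2 fold change 0.27 ± 0.03, adjusted p = 3.9e-10, or 0.72 without the block). Median UMI counts were 1985 to 3030 in the upper tertile and 2277 to 3063 in the lower, and at 1000 UMIs per nucleus *Tnr* differed by 0.70. Of the matrix lists, 1 of 8 tested chain synthesis genes fell (*Chsy3*, -0.54 ± 0.08), as did 1 of 6 for sulfation (*Ust*, -1.06 ± 0.10) and 1 of 5 proteases (*Adamts1*, -0.60 ± 0.13). Of 14 tested receptors and partners, the integrin subunit *Itga8* rose (1.14 ± 0.20) and *Itga9* fell (-0.82 ± 0.23), while neither of 2 hyaluronan genes nor the 1 other member was called. At 1000 UMIs per nucleus *Ust* was the 1 list gene called.

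OLs of the control libraries with a *Piezo2* UMI also held more *Tnr* than those without. The 4359 nuclei with one had 46.2 to 55.6 CPM and the 3618 without had 24.7 to 29.5 CPM, and the ranges did not overlap. The log2 fold change was 0.90 ± 0.11 (adjusted p = 2.0e-13), and *Tnr* was the 1 of 7 tested genes to rise, against 1.7% of all genes, and none fell, against 1.71%. *Hapln2* was higher in 4 of 4 libraries but below the fold threshold (0.24 ± 0.04, adjusted p = 5.0e-06). *Ptprz1* was lower in 4 of 4 libraries, at 25.1 ± 3.61 CPM against 33.1 ± 8.71 CPM, also below the fold threshold (-0.35 ± 0.12, adjusted p = 0.033, or 0.60 without the block). An OL level of *Ptprz1* could not be told apart from the RNA of empty droplets, and the part of that RNA in this difference was not tested. The nuclei with a *Piezo2* UMI were deeper, with median UMI counts of 2600 to 3376 against 1847 to 2586. At 1000 UMIs per nucleus the log2 fold change of *Tnr* was 0.73 (adjusted p = 0.0020). *Piezo2* itself was higher in the upper maturation tertile (0.74 ± 0.04, adjusted p = 8.3e-29).

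**Figure D3:**
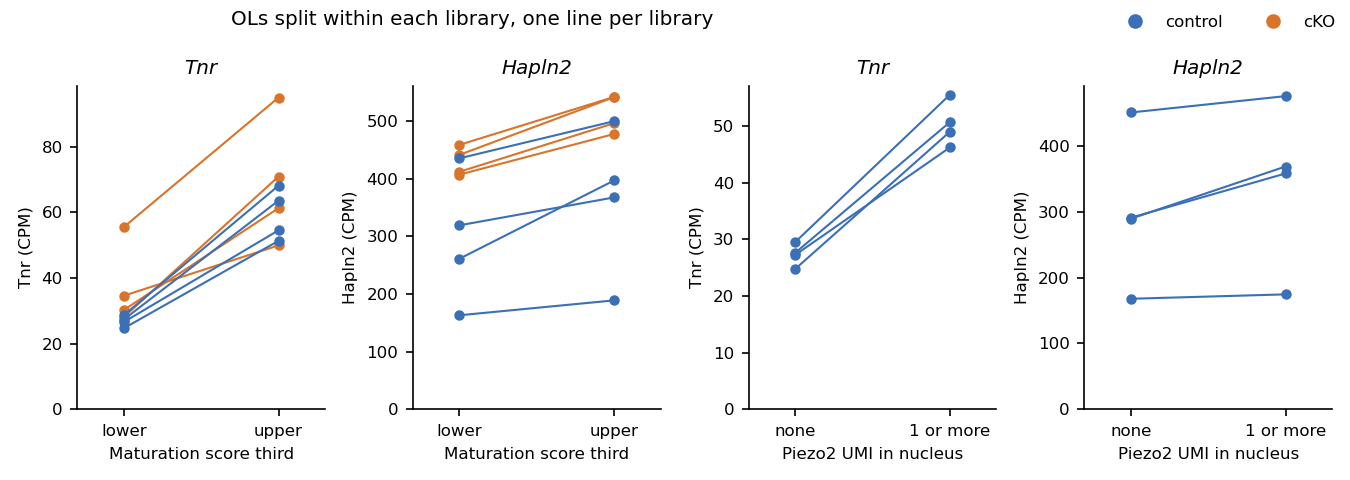
CPM of *Tnr* and *Hapln2* in OLs split within each library by maturation score (left pair, 8 libraries) and by *Piezo2* UMIs (right pair, 4 control libraries); a line joins the 2 parts of 1 library. *Tnr* is higher in every library in both splits, at 64.4 ± 14.6 CPM in the upper maturation tertile.

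Subclusters of OLs, astrocytes and fibroblasts are given as descriptions, with no test. In OLs, subcluster 2 of 3314 nuclei, led by *Etl4*, *Galnt18* and *Lgi4*, held 102 ± 17.0 CPM of *Tnr* (n = 8), while the other 6 held means of 28.6 to 44.2 CPM. Its lowest library, at 87.8 CPM, was above the highest of any other, 61.4 CPM. *Piezo2* was highest in subcluster 2 too, at 870.5 ± 65.1 CPM, against means of 318.6 to 561.2 CPM in the others. Whether its *Tnr* level is separate from the differences by *Piezo2* UMIs and by maturation was not tested. *Hapln2* was lowest, at 247 ± 64.0 CPM, in subcluster 3, led by *Kit*, *Kirrel3* and *Synpr*. In fibroblasts, *Vcan* and *Tnc* led different subclusters. *Vcan* was at 146 ± 38.0 CPM in subcluster 0 and 101 ± 33.9 CPM in subcluster 3, where *Tnc* was at 8.87 ± 15.3 and 12.1 ± 9.79 CPM. *Tnc* was at 166 ± 83.3 CPM in subcluster 8 (n = 5) and 101 ± 54.6 CPM in subcluster 7 (n = 7). In astrocytes, subcluster 7 of 239 nuclei, led by *Adgrb3*, *Cadm2* and *Mgat4c*, held 479 ± 68.0 CPM of *Bcan* and 1036 ± 138 CPM of *Ptprz1*. *Tnr* was at 164 ± 53.4 CPM there. It was highest in subcluster 8 of 229 nuclei, at 318 ± 298 CPM (n = 7, lowest 144, highest 976), and lowest in subcluster 5, at 10.7 ± 3.76 CPM. Subcluster 10 held 46 of the *Ncan* UMIs and 19 of the *Tnc* UMIs in 47 nuclei, of which 21 came from control replicate 3.

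Over the 10 types, the mean log2 CPM of *Tnr* correlated with that of *Vcan* at Pearson's r = 0.884, and that of *Ncan* with *Ptprz1* at 0.873, as descriptions over points that share libraries. Of 16326 genes with at least 10 CPM in some type, *Galnt6* (r = 0.981), *Nfe2l3* (0.980) and *Adssl1* (0.968) were most like *Hapln2*. *Slc5a7* (0.975), *Gm38039* (0.971) and *Inava* (0.970) were most like *Tnr*, *Pcdhb2* (0.962), *Chst5* (0.961) and *AW495222* (0.959) most like *Vcan*, and *Mir9-3hg* (0.966), *Gm3764* (0.953) and *Cyp2j9* (0.933) most like *Ptprz1*.

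Between genotypes, 1 of the genes differed in 1 cell type. In OPCs, the controls held 2400, 2429, 2448 and 2192 CPM of *Vcan* (replicates 1 to 4), and the libraries labelled cKO held 1641, 1657, 1829 and 1597 CPM (replicates 10 to 13). All 4 control libraries were above all 4 labelled cKO. The groups did not overlap either for *Bcan* and *Ptprz1* in OPCs or for *Cspg5* in astrocytes, none of which was called. How many of all genes had groups apart in this way was not counted, so the separation is not read as particular to *Vcan*. *Vcan* fell by 0.51 ± 0.10 on the log2 scale (adjusted p = 0.0089, edgeR), the 1 of 7 tested genes called, where 0.307% of all genes were called and 0.21% fell. With nuclei thinned to 1000 UMIs, 83.8% ± 2.16 of control OPCs and 72.1% ± 2.54 of those labelled cKO held a *Vcan* UMI. The fold was just past the threshold of 0.5, and 11 of 16 alternatives kept the call, with log2 fold changes of -0.56 to -0.50. With nuclei thinned to 1000 UMIs it was -0.50, at the threshold. Without a filter on low counts it was -0.51 (adjusted p = 0.058). Without control replicate 3 it was -0.50 (adjusted p = 0.055) and without replicate 13 it was -0.49 (adjusted p = 0.042). With the 430 nuclei of the unnamed clusters counted as OPCs it was -0.41 (adjusted p = 0.83).

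The RNA of empty droplets moved the same way. *Vcan* was at 51.5 to 55.6 CPM there in the controls and 27.6 to 47.4 CPM in the libraries labelled cKO, again without overlap (exact permutation test, p = 0.0286, the smallest that 4 against 4 allow, adjusted p = 0.286 over the 10 genes). By edgeR the difference there was -0.57 ± 0.14 (adjusted p = 0.41), where 0.0356% of all genes were called. After subtraction of that profile the OPC difference was -0.50 (adjusted p = 0.011). Blood markers moved with the genotype as well. The 3 markers of red blood cells summed to 1168 to 2142 CPM in the control OPC sums and 414 to 1097 CPM in those labelled cKO, and pituitary markers to 31.8 to 936 and 0 to 4.60 CPM. In the OPC sums, OL, astrocyte, fibroblast, myeloid and neuron markers overlapped between the groups. OPC markers in the OL sums were at 269.5 to 367.8 CPM in controls and 251.9 to 267 CPM in those labelled cKO, without overlap. In the astrocyte sums they were at 155.8 to 204.3 and 128.6 to 166.6 CPM, which overlapped. The part of these in the *Vcan* difference was not tested. OPCs made up 1.85% ± 0.244 of nuclei in controls and 2.03% ± 0.292 in libraries labelled cKO (exact permutation test, p = 0.34). In empty droplets, fewer cells of a type and less RNA per cell cannot be told apart.

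**Figure D4:**
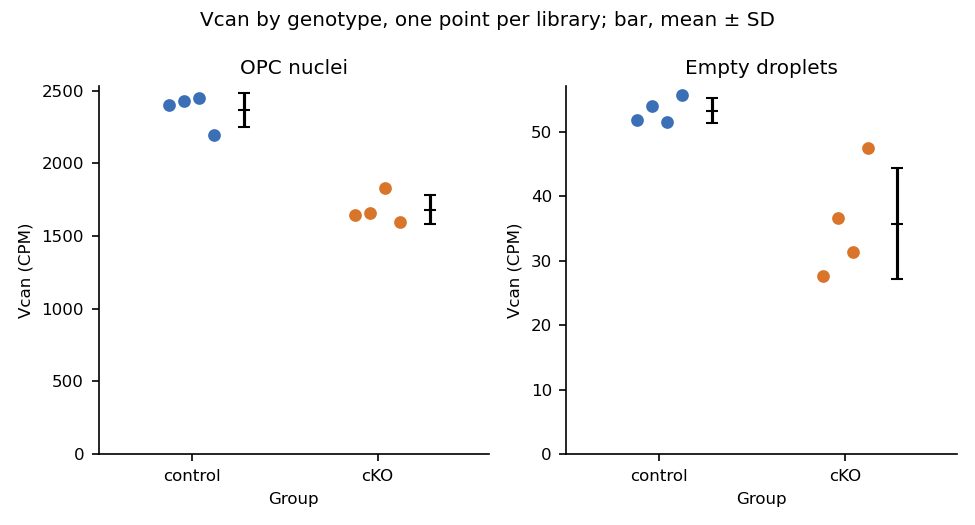
*Vcan* in CPM by group, 1 point per library, with mean ± SD beside, in OPC sums (left) and in empty droplets (right). In both panels the 4 control libraries, at 2192 to 2448 CPM and 51.5 to 55.6 CPM, lie above all 4 libraries labelled cKO.

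The other genes did not pass in OPCs. *Bcan* was at 161 to 202 CPM in controls and 212 to 303 CPM in libraries labelled cKO, with a log2 fold change of 0.43 ± 0.17 (adjusted p = 0.49). *Tnr* was at 3819 to 5095 and 3400 to 4270 CPM (-0.25 ± 0.10, adjusted p = 0.51), and *Ptprz1* at 2534 to 2846 and 2352 to 2509 CPM (-0.15 ± 0.10, adjusted p = 0.72). *Olig2* was not lower in the libraries labelled cKO. Its log2 fold change was 0.68 ± 0.21 in OPCs (adjusted p = 0.23). In OLs it was at 24.0 to 41.2 CPM in controls and 43.7 to 51.7 CPM in those labelled cKO (0.58 ± 0.15, adjusted p = 0.25). Counts of *Olig2* were not split by allele, and its dose was not tested. In committed OPCs *Vcan* was at 1218 and 871 CPM in 2 control libraries and 647 to 1557 CPM in 4 labelled cKO, which overlapped.

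In OLs none of 8 tested genes was called, against 0.083% of all genes (12 of 14461). *Hapln2* was at 339, 467, 331 and 173 CPM in controls and at 459, 504, 494 and 446 CPM in libraries labelled cKO, and 1 control lay within their range (log2 fold change 0.52 ± 0.21, adjusted p = 0.52). *Hapln2* in astrocytes (0.70 ± 0.21, adjusted p = 0.54), in fibroblasts (0.61 ± 0.28, adjusted p = 1) and in empty droplets (0.40 ± 0.18, adjusted p = 0.67) had the same sign. Its means were 26.3 CPM in astrocytes and 26.1 CPM in fibroblasts, beside 193 CPM in empty droplets. RNA of empty droplets made up an estimated 9.98% to 18.9% of the astrocyte sums and 9.76% to 16.3% of the fibroblast sums. Whether *Hapln2* in these 2 types was more than that RNA was not tested, so the signs are not read as separate observations. *Tnr* in OLs was at 38.4 to 45.7 CPM and 44.8 to 66.5 CPM (0.28 ± 0.13, adjusted p = 0.56). In astrocytes none of 9 was called and in fibroblasts none of 8, where 0 of 14561 and 0 of 12430 genes (0%) were called by edgeR. At an unadjusted p below 0.05 edgeR gave 1141 and 510 genes there, and DESeq2 called 9 in astrocytes. *Cspg5* in astrocytes had 0.41 ± 0.14 (adjusted p = 0.57), and *Tnc* had -1.22 ± 0.48 (adjusted p = 0.60), with 15.1 CPM in control replicate 3 and 2.16 to 4.93 CPM in the other libraries. The genes of the 6 matrix lists were called in 0 cases in OPCs, OLs, astrocytes and fibroblasts.

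Whether a genotype difference itself differed between cell types was tested for 10 genes over 10 pairs of types by exact permutation of the genotype labels. None of the 100 tests passed after adjustment (smallest adjusted p = 0.714). A few differences could not have passed at any size, since 4 against 4 libraries allow no exact p below 0.0286. The lack of passes is thus not read as equal effects. The smallest p was reached by 4 tests, which are named here and not read as differences. These were *Tnr* in OPCs against OLs (-0.52 on the log2 scale), *Bcan* and *Cspg5* in OPCs against astrocytes (0.33 and -0.36), and *Tnc* in the same pair. For *Tnc* no size is read, since OPCs held 10 of its UMIs in all, 1 of them in the controls, and the value depends on the pseudocount of 0.5.

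**Figure D5:**
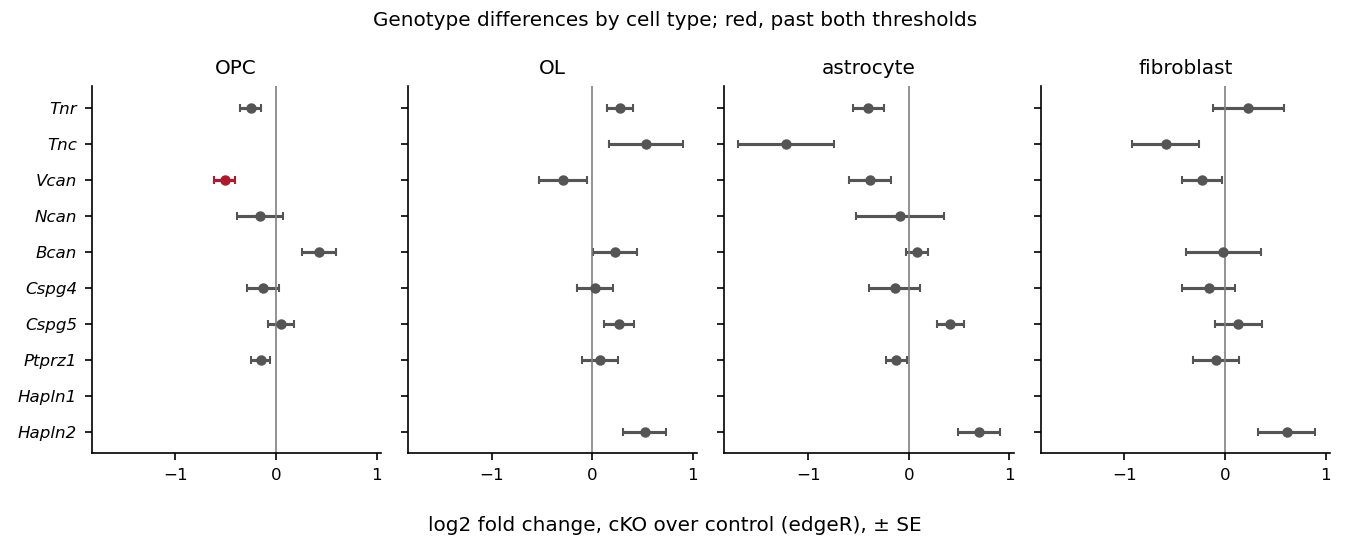
Log2 fold change of each tested gene, libraries labelled cKO over control, ± SE, in 4 cell types; red marks an adjusted p below 0.05 with a log2 fold change over 0.5. *Vcan* in OPCs, at -0.51, is the 1 red point.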

How the data were processed

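Single-nucleus RNA was measured in 8 libraries, 4 per group, grouped by their labels. The authors counted UMIs with Cell Ranger 7.0.0 on GRCm39, and the deposited values are raw counts per gene and barcode, without normalization. Their later removal of ambient RNA (Cellbender) and of doublets is not in these counts. Nuclei were called by the OrdMag threshold (99th percentile of 8000 expected nuclei, divided by 10) or, with at least 500 UMIs, by a test against the ambient profile (false discovery rate 0.01). Filters used the limits in the study's methods, and 2.87% to 5.24% of nuclei per library were removed by a Scrublet-type score. The study also left nuclei with hemoglobin, ribosomal or mitochondrial genes out of its ON tests. No such step was used here, and hemoglobin genes were among those called between genotypes in OPCs. Clusters (scanpy 1.11.5, leidenalg 0.10.2, resolution 3) were made without the 10 genes and named from fixed markers; committed OPCs were exempt from the rule on mixtures.

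Counts were summed per library and type (at least 10 nuclei) and fitted with edgeR 4.0.16 (quasi-likelihood, TMM, filterByExpr), with the library as a block within libraries. Calls needed an adjusted p below 0.05 (Benjamini-Hochberg over all genes tested) and an absolute log2 fold change over 0.5. Fits were tested on simulated data. DESeq2 1.42.0, other filters, depth thinning, ambient subtraction and leaving out libraries were alternatives. Single values used exact two-sided tests. The pairing within a library comes from its nuclei sharing 1 pool. Genes named are the 10, up to 3 called genes of each list with the largest change, and the 3 most alike per gene; other named values were chosen after they were seen. The members, lists and promoter motifs were chosen with earlier results of these data known. Precision is limited by 4 libraries per group and by small sums.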

Additional observations from a re-analysis of the deposited data

Results flagged for a closer look

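In 84 groups of 4 libraries, the highest or the lowest library was compared with the rest, and 6 stood apart, where chance gives about 1 in 20. *Tnc* in astrocytes was at 15.1 CPM in control replicate 3, against 3.15 to 4.93 CPM in the other controls. *Tnr* in OLs was at 66.5 CPM in replicate 10 labelled cKO, against 44.8 to 48.3 CPM. *Cspg4* in fibroblasts was at 28.8 CPM in control replicate 4, against 14.8 to 15.4 CPM, and *Tnr* in fibroblasts at 9.75 CPM in control replicate 1, against 7.63 to 7.93 CPM. In empty droplets, *Hapln2* was at 127 CPM in control replicate 4, against 177 to 184 CPM, and *Ptprz1* at 223 CPM in replicate 13 labelled cKO, against 177 to 183 CPM.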

How the results depend on the processing

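The 22 called differences of a single gene along the lineage and within OLs were computed under alternatives 424 times in all. The call was lost in 3 and the sign changed in 0. The 3 were *Tnr* from OPC to committed OPC with thinned nuclei (0.12) and with the ambient profile subtracted (0.52), and *Ncan* from committed OPC to OL in control libraries only (-3.28). Calls of single members between cell types were followed as counts only. The cause was not tested here or below. Alternatives on OPC-led mixtures, on mural and T cells, on empty droplets and on the order and interaction tests were chosen after seeing the data.

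Numbers of genes called fell with thinning to 1000 UMIs, to 2192 in OPCs, 3634 in OLs, 3171 in astrocytes and 2928 in fibroblasts against other types, to 1541 from OPC to committed OPC, 3534 from OPC to OL, 127 for maturation and 89 for *Piezo2* UMIs. The members called were then 3 of 7 tested in OLs and 2 of 7 in fibroblasts, against 5 and 6 of 9 at full depth, while 48.3% and 38.9% of genes were called, against 42.7% and 37.8%. List genes called were 19 from OPC to OL, 1 for maturation and 0 for *Piezo2* UMIs. With control libraries only, 1120 genes and 11 list genes were called from OPC to committed OPC, 1768 genes from committed OPC to OL, and 3 members in astrocytes, against 5 (35.2% of genes, against 39.9%). In OLs 8 members were called by DESeq2 (52.5% of genes) and 8 without mural and T cells (43.4%). Without a filter 8657 genes were called in astrocytes. DESeq2's size factors moved the share of calls that were higher from 75.5% to 54.4% in OLs, 81.7% to 69.9% in fibroblasts, 71.2% to 50.8% in myeloid cells, 54% to 90% in mural cells, 39.4% to 62.9% in T cells and 65.9% to 38.9% from committed OPC to OL. From OPC to committed OPC they gave 981 higher and 1474 lower, against 752 and 1875. For *Piezo2* UMIs DESeq2 called 153 genes and 1 list gene, and leaving out a library 3 to 5 list genes. With the ambient profile subtracted, 17 neighbour pairs of types passed.

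Between genotypes, DESeq2 called 53 genes in OLs and 9 in astrocytes. Without a filter, 45 were called in OLs, 38 in OPCs, 19 in astrocytes and 50 in fibroblasts, with 1 list gene. OPC calls were 8 when thinned, 7 with the ambient profile subtracted and 0 with OPC-led mixtures, and those with *Vcan* were 0 when thinned, without a filter or with the mixtures. *Vcan* in OPCs was -0.51 without a filter (adjusted p = 0.058, edgeR), -0.50 thinned and -0.41 with the mixtures. The same fit on empty droplets, which hold no nuclei, gave -0.57. Leaving out a library gave -0.56 to -0.49, 0 or 1 members in OPCs and 0 to 4 genes in astrocytes.

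No paired analysis was possible because control replicates 1 to 4 and replicates 10 to 13 share no numbers. Within libraries, without the replicate block, 76 genes and 0 list genes were called for *Piezo2* UMIs.

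Signs changed for differences that were not called. From OPC to committed OPC these were *Tnc* (2.48) and *Bcan* (0.0085) in control libraries, and *Bcan* (0.16) and *Hapln2* (-1.09) with the mixtures. From committed OPC to OL they were *Tnc* without a filter (0.10), *Cspg4* by DESeq2 (-0.030) and its size factors (-0.035), and *Cspg5* with the ambient profile subtracted (-1.86). From OPC to OL it was *Tnc* in control libraries (0.42). Within OLs they were *Bcan* by the OrdMag threshold alone (-0.011) and *Cspg5* in control libraries (-0.0034) for maturation, and *Bcan* (0.064), *Cspg4* (0.091) and *Cspg5* (0.16) thinned for *Piezo2* UMIs. Between genotypes they were *Vcan* in OLs thinned (0.27), *Ncan* in OPCs with the mixtures (0.058), *Tnr* in fibroblasts by OrdMag alone (-0.084) and *Ptprz1* in fibroblasts thinned (0.065).

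Leaving out 1 library gave both signs for *Tnc* from committed OPC to OL (-0.42 to 4.30), and for *Cspg4* (-0.032 to 0.030) and *Ptprz1* (-0.078 to 0.017) by maturation. Between genotypes it did so in OLs for *Cspg4* (-0.13 to 0.13) and *Ptprz1* (-0.14 to 0.17), in OPCs for *Ncan* (-0.36 to 0.031), *Cspg4* (-0.24 to 0.039) and *Cspg5* (-0.050 to 0.10), in astrocytes for *Ncan* (-0.38 to 0.44) and *Cspg4* (-0.23 to 0.065), and in fibroblasts for *Tnr* (-0.10 to 0.50), *Bcan* (-0.34 to 0.26), *Cspg4* (-0.32 to 0.12), *Cspg5* (-0.0068 to 0.24) and *Ptprz1* (-0.31 to 0.10).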
